A study of Homo sapiens with 12 samples.

Results

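The clustered protocadherins are cell adhesion genes that stand in tandem on chromosome 5. The 53 members described here were all GRCh38 protein-coding genes of that chromosome whose RefSeq symbol is PCDH followed by A, AC, B, GA, GB or GC and a number, of 19974 protein-coding genes on chromosomes 1 to 22 and X. They span chr5:140786140-141512975, 727 kb, in 3 sub-clusters: alpha with 15 members (chr5:140786140-141012347), beta with 16 (chr5:141051374-141249365) and gamma with 22 (chr5:141330514-141512975). Chromatin immunoprecipitation sequencing had been carried out in wild-type HEK293T cells, a human embryonic kidney line, with antibodies against INTS13, INTS11, HDGF, ZEB1 and ZNF609, to ask whether INTS13 and transcription factors that interact with it occupy the same loci. There were 2 libraries per protein, each with its own deposited list of peaks, and 2 Input libraries that were not used here. Whether the replicates are separate cultures is not stated anywhere, so their spread, and the p-values that rest on it, may reflect technical variation alone. Peak lists hold no expression values, so neither the cell label nor the expression of the protocadherins could be checked.

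Each alpha and gamma gene has its own promoter and its own long first exon, which encodes the extracellular and transmembrane part of the protein. That exon is spliced to constant exons shared by all genes of the sub-cluster, whereas each beta gene is a complete coding unit. In neurons the promoters are chosen in a largely random way, which involves CTCF, cohesin and DNA methylation, and the resulting mixture of surface proteins lets a neuron recognise its own branches. The C-type members (PCDHAC1, PCDHAC2, PCDHGC3, PCDHGC4 and PCDHGC5) stand last in the alpha and gamma arrays and are known to be less subject to this random choice. INTS11 carries the RNA-cleaving activity of Integrator, which acts on RNA polymerase II transcripts, and INTS13 is a subunit of its arm module. HDGF is a chromatin-binding growth factor, ZEB1 a zinc finger repressor that binds E-boxes, and ZNF609 a zinc finger protein known to bind Integrator and the cohesin loader NIPBL.

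The annotated layout decides how gene ends can be read. The 53 members have 53 different 5' ends, but all 15 alpha members end at the same base, and so do all 22 gamma members, so that there are only 18 different 3' ends. A strand, plus in each case, was available for 47 members through their RefSeq promoter entry. For the other 6 (PCDHA3, PCDHA13, PCDHB6, PCDHB11, PCDHGA12 and PCDHGC5) the lower-coordinate end was taken as the 5' end.

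The sequence at these 5' ends differs from that of most promoters. RefSeq promoters (GRCh38.p14, 250 bases before to 50 after the start) were matched for 47 members, and their median GC content was 39.7%, against 62.7% over all 15813 protein-coding promoters. The median was 37.3% in 13 alpha, 40.8% in 14 beta and 42.0% in 20 gamma promoters, while the 4 C-type promoters stood apart with a median of 61.8%. Promoters of this family are known for a conserved element with the core CGCT. Searched on both strands, CGCT was found in 46 of 47 member promoters and in 81.0% of all promoters, so the core alone marks little. Its extended forms, chosen after the sequences had been seen and each containing CGCT, differed between the sub-clusters. TGTCGCT was in 10 of 13 alpha, 1 of 14 beta and 3 of 20 gamma promoters and in 2.12% of all promoters. TGGCGCT was in 13 of 14 beta, 3 of 20 gamma and 0 of 13 alpha promoters and in 5.26% of all. CGCCGCT was in 10 of 20 gamma promoters, in no alpha or beta promoter, and in 12.8% of all. The E-box CACCTG, known as a ZEB1 recognition word, was in 4 of 47 member promoters (8.51%), against 19.9% of all promoters. These matches describe the windows and say nothing of binding.

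The shared element can be read directly when stretches of 34 bases are set under each other, 5' to 3' on the plus strand, with the CGCT core in capitals. The first 5 are alpha members picked as examples of the TGTCGCT form. Each carries an INTS13 region in its first 3 kb, as did 13 of the 15 alpha members and 61.9% of all genes with a strand. Whether the form of the element goes with INTS13 peaks was not tested.
PCDHA1, chr5:140786082-140786115: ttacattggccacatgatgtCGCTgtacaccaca
PCDHA4, chr5:140806975-140807008: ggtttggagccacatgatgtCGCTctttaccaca
PCDHA5, chr5:140821538-140821571: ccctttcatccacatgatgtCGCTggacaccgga
PCDHA8, chr5:140841126-140841159: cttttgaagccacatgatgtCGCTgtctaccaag
PCDHA12, chr5:140875240-140875273: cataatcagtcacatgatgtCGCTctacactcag
The next 4 are beta members, shown because they carry the TGGCGCT form and lie in the sub-cluster with the fewest INTS13 peaks.
PCDHB2, chr5:141094540-141094573: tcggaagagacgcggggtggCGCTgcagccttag
PCDHB5, chr5:141135175-141135208: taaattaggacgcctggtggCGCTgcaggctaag
PCDHB15, chr5:141245310-141245343: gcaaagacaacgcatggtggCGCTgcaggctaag
PCDHB16, chr5:141182306-141182339: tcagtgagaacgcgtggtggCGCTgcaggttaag
The last 4 are gamma members with the TGTCGCT form (PCDHGA3 and PCDHGA5) or the CGCCGCT form (PCDHGA9 and PCDHGB6).
PCDHGA3, chr5:141343763-141343796: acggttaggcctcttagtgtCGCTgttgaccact
PCDHGA5, chr5:141364103-141364136: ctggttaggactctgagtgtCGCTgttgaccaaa
PCDHGA9, chr5:141402710-141402743: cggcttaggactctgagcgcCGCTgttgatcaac
PCDHGB6, chr5:141407920-141407953: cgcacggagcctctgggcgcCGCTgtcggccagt
Counted from the annotated start, the core began between positions -81 and -11 in these 13 stretches.

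Whole promoters of 3 members show the range of base composition. PCDHA5 had the best-ranked INTS13 peaks at a 5' end, PCDHB15 had none in its first 3 kb, and PCDHGC3 is a C-type member with an INTS13 region across its start. Capitals mark CGCT on the strand printed, which occurs at 1 place in the alpha and the beta promoter and repeatedly in the C-type promoter.
PCDHA5, chr5:140821363-140821662: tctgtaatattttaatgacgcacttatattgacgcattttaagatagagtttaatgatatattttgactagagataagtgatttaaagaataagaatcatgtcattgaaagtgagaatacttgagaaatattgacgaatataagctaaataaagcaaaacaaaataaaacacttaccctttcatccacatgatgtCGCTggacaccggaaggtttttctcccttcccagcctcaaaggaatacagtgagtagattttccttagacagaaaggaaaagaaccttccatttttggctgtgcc
PCDHB15, chr5:141245145-141245444: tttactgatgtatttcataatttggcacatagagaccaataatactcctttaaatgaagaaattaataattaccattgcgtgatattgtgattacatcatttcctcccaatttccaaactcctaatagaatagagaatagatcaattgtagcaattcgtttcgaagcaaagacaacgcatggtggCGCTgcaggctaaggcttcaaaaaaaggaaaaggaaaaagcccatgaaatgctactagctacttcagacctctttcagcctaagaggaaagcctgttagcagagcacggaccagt
PCDHGC3, chr5:141475716-141476015: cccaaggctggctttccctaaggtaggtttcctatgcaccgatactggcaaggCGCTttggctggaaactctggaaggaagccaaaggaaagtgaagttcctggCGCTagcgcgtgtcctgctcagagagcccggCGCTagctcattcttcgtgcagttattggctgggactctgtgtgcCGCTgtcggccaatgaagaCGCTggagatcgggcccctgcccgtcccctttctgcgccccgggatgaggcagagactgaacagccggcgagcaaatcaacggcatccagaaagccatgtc

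Across the whole cluster, INTS13 was the protein with by far the most peaks. The INTS13 lists held 78 peaks in the cluster in replicate 1 and 71 in replicate 2. INTS11 had 18 in replicate 1 and 1 in replicate 2. HDGF had 1 in each list, ZEB1 had 2 and 1, and ZNF609 had 0 and 0. The lists themselves differ in length, from 26409 peaks (ZNF609 replicate 2) to 416964 (INTS13 replicate 1) on chromosomes 1 to 22 and X, so each count was set against the density outside the cluster. INTS13 had 107 and 97.7 peaks per Mb in the cluster, against 138 and 113 outside it. INTS11 had 24.8 and 1.38 peaks per Mb in the cluster, against 64.5 and 35.0 outside. HDGF had 1.38 in the cluster in both lists, against 48.8 and 37.9 outside. ZEB1 had 2.75 and 1.38 in the cluster, against 17.3 and 15.0 outside, and ZNF609 none, against 15.2 and 8.72 outside. Every list was thus sparser in the cluster than the mean density outside it. The rest of chromosome 5 was itself sparser than that mean. It had 98.6 and 75.8 INTS13 peaks per Mb, both below the density in the cluster. Its 39.6 and 18.2 INTS11 and 28.2 and 21.2 HDGF peaks per Mb were above the density in the cluster. The median 1-Mb bin of chromosomes 1 to 22 and X held 85 and 63 INTS13, 17 and 4 INTS11 and 13 and 9 HDGF peaks. It held 1 and 1 ZEB1 and 1 and 0 ZNF609 peaks. Both INTS13 lists, INTS11 replicate 1 and both ZEB1 lists were denser in the cluster than in that bin. No read depth is known for any library, and the densities are given without a counting interval.

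**Figure D1:**
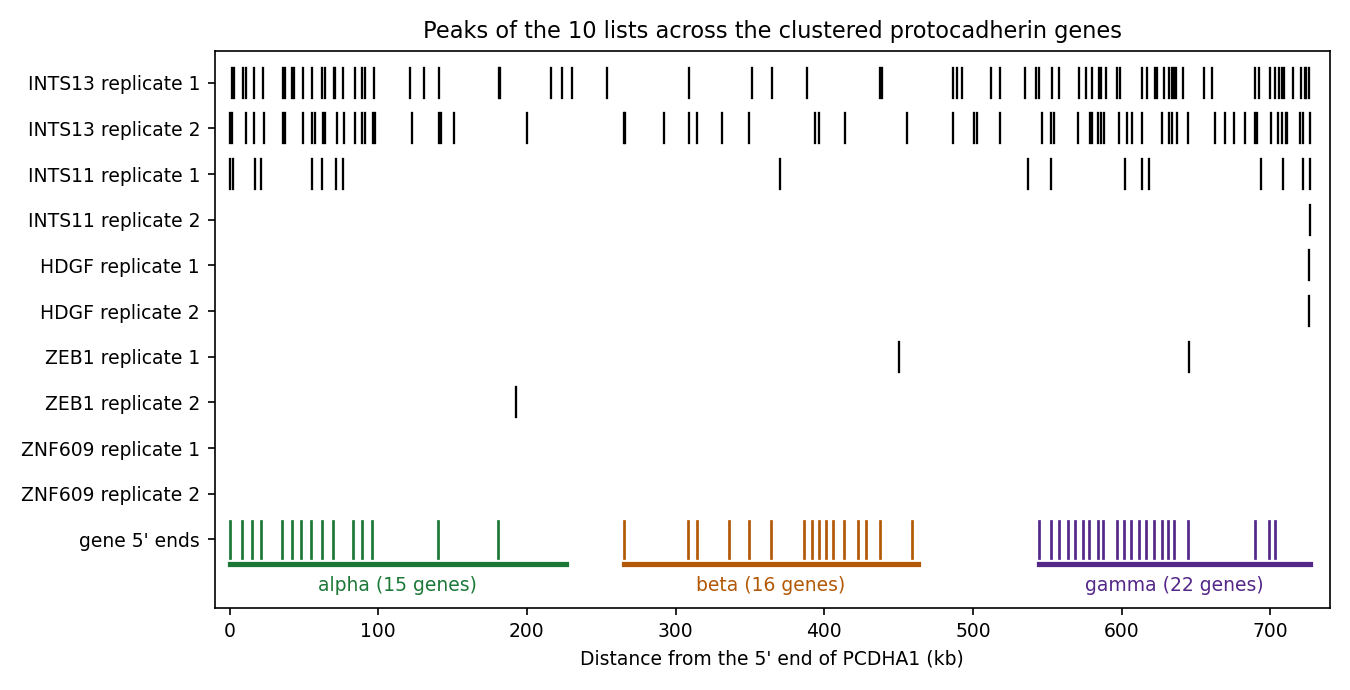
Each tick is the summit of a peak of one of the 10 lists, placed by its distance in kb from the 5' end of PCDHA1 (x axis). The lowest rows show the 53 gene 5' ends, in green (alpha, 15 genes), orange (beta, 16) and purple (gamma, 22), and the extent of each sub-cluster. The 78 and 71 INTS13 peaks crowd over the alpha and gamma genes, INTS11 replicate 1 has 18 peaks, and at the right edge INTS11 replicate 2 and both HDGF lists have 1 peak each at the common gamma 3' end.

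The density in the cluster over that outside was put on a log2 scale, with 1 peak added. On this scale INTS13 averaged -0.26 ± 0.11, INTS11 averaged -2.49 ± 1.67 and HDGF averaged -3.97 ± 0.26, while ZEB1 stood at -2.25 ± 0.27 and ZNF609 at -3.07 ± 0.57 (SD, n = 2 lists each). With 0 peaks in the cluster, the ZNF609 value is the added peak over the density outside and reflects the length of its lists. With 1 or 2 peaks a list, the HDGF and ZEB1 values also rest largely on the added peak, so the order of these 3 proteins was not read from them. Differences between proteins made up 82.0% of the spread. The 945 divisions of the 10 lists into 5 pairs gave an exact one-sided permutation p = 0.0529, adjusted over 5 tests to 0.0952. The share of base pairs under peaks was also lower in the cluster for INTS13: 6.64% and 6.12%, against 11.6% and 11.3% outside. The same exact test over the 5 proteins gave p = 0.0571 (adjusted 0.0952). Set against the rest of chromosome 5, the 2 measures went opposite ways for INTS13. There its log2 ratios were 0.14 and 0.39 for density but -0.20 and -0.19 for covered base pairs. The spread between the 2 INTS11 lists, 18 peaks against 1, weighed on both tests. Where 1 INTS11 list is left out, the other stands alone, its spread leaves the test, and the remaining 4 proteins give the spread within pairs. Without INTS11 replicate 1, differences between proteins made up 97.2% of the spread in density and 98.1% in covered base pairs. Without INTS11 replicate 2 they made up 97.1% and 98.0%. The covered base pairs had the median peak width of each list added in the same way. With 0 to 2 cluster peaks in the HDGF, ZEB1 and ZNF609 lists, these shares rest largely on what was added, so no call was read from them. The p-values above share this limit.

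The INTS13 peaks in the cluster were weak for their lists. The authors' fold, a peak's height over the caller's background in its own list, ran from 1.82 to 3.20 in replicate 1 and from 1.63 to 2.61 in replicate 2, while the lists reached 16.4 and 13.8. Ranked by the authors' -log10 p within each list, the median cluster peak stood at percentile 41.6 in replicate 1 and 27.0 in replicate 2 (mean 34.3 ± 10.3, SD, n = 2). A -log10 q of 5 or more was reached by 5 of the 78 peaks and 3 of the 71, and none was among the 10000 strongest of its list. The same was true of the single peaks of the other proteins: no cluster peak of any of the 10 lists was among the 10000 strongest. The strongest cluster peak of replicate 1 lay downstream of the PCDHGC5 start (chr5:141491617-141492100, fold 3.20, -log10 q 6.94, percentile 94.3). In replicate 2, 3 peaks shared the highest value (fold 2.61, -log10 q 5.26, percentile 89.1), and they lay at the starts of PCDHA1 (chr5:140786241-140786686), PCDHA5 and PCDHA13.

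The 3 sub-clusters were occupied unequally by INTS13. Gamma had 35 peaks in replicate 1 and 32 in replicate 2 (192 and 175 per Mb). Alpha had 28 and 24 (124 and 106 per Mb), and beta had 6 and 11 (30.3 and 55.6 per Mb), with a further 9 and 4 peaks between the sub-clusters. Gamma stood above and beta below the density outside the cluster in both lists. The log2 ratio of gamma to beta density, with 1 peak added, was 2.03 ± 0.64 for INTS13 and 1.70 ± 0.83 for INTS11 (SD, n = 2 each), and that of alpha to beta was 1.36 ± 0.70 and 0.89 ± 1.53. The other 3 proteins had 0 to 2 peaks a list, so their ratios are set by the added peak. The planned exact test between proteins gave p = 0.0190 for gamma to beta (adjusted 0.0952) and p = 0.429 for alpha to beta (adjusted 0.429). Since the values of 3 of the 5 proteins were fixed by the added peak, neither p bears on these ratios. Whether the sub-clusters differ within a protein is a question for which the 2 INTS13 lists are too few to test.

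**Figure D2:**
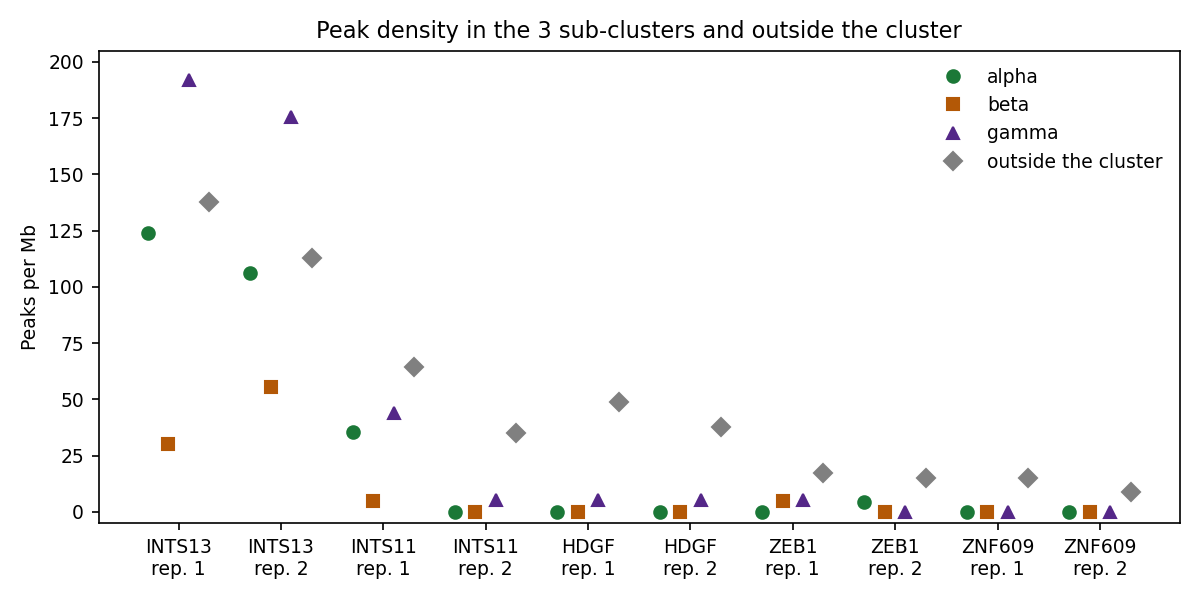
Peaks per Mb (y axis) in the alpha (green circles), beta (orange squares) and gamma (purple triangles) sub-clusters and outside the cluster on chromosomes 1 to 22 and X (grey diamonds), for each of the 10 lists (x axis). In both INTS13 lists gamma is highest (192 and 175) and beta lowest (30.3 and 55.6), and in the lists of the other proteins each sub-cluster lies below the density outside.

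The INTS13 lists also repeated each other to a different degree in each sub-cluster. In alpha 17 of the 28 peaks of replicate 1 overlapped a peak of replicate 2 (60.7%), close to the 59.6% of that list over all chromosomes. In gamma 15 of 35 did (42.9%), and in beta 0 of 6. Seen from replicate 2, 18 of 24 alpha peaks (75.0%), 15 of 32 gamma peaks (46.9%) and 0 of 11 beta peaks overlapped replicate 1, against 66.7% over all chromosomes. Merging overlapping peaks of both lists gave 33 INTS13 regions in the cluster: 17 in alpha, 14 in gamma, 2 between sub-clusters and 0 in beta.

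Counted at either gene end in both replicates, occupancy was above the share of all genes for INTS11 and HDGF alone. A region found in both replicates lay within 1 kb of either end of 27 of 53 members for INTS13 (50.9%), where the share of all 19974 protein-coding genes was 63.7%. The count was 22 of 53 for INTS11 (41.5%), against 17.4% of all genes, and 22 of 53 for HDGF (41.5%), against 22.2%. ZEB1 and ZNF609 had 0 of 53, against 3.78% and 1.57%. In single lists INTS13 had 34 and 36 members, against 79.5% and 68.1% of genes, INTS11 had 26 and 22, against 50% and 22.2%, and HDGF had 22 and 22, against 38.5% and 34.6%. ZEB1 had 0 in both lists, against 13.3% and 8.48%, and so did ZNF609, against 7% and 3.43%. The 22 members were the same for INTS11 and HDGF: the gamma genes, all through their common 3' end. Each count of 22 is therefore 1 region counted 22 times, and 17 of the 27 INTS13 members were also counted only through that end.

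At the members' own 5' ends the picture was different. Within 1 kb of the 5' end, INTS13 had a region found in both replicates at 10 of 53 members (18.9%), against 60.1% of 15813 genes with a strand. These were 5 alpha members (PCDHA5, PCDHA8, PCDHA9, PCDHA12 and PCDHAC1) and 5 gamma members (PCDHGA2, PCDHGB7, PCDHGA11, PCDHGC3 and PCDHGC4), with 0 of 16 beta members. The region counted for PCDHGA11, chr5:141418920-141420051, lies in PCDHGB7 and touches the window at its last base. The start of PCDHGA11 itself had a peak in replicate 1 alone, so the count of 10 includes a neighbour's region. INTS11, HDGF, ZEB1 and ZNF609 had such a region at 0 of 53 members, against 15.2%, 15.4%, 3.09% and 1.16% of all genes. In single lists, INTS13 had a peak at 24 members' 5' ends in replicate 1 and 24 in replicate 2, where the shares of all genes were 77.8% and 62.5%. INTS11 had 6 in replicate 1, with a background of 44.9%, and 0 in replicate 2, with a background of 17.6%. HDGF, ZEB1 and ZNF609 had 0 in all 6 lists, with backgrounds of 26.3% and 24.5% (HDGF lists), 10.1% and 6.43% (ZEB1 lists) and 4.7% and 1.92% (ZNF609 lists). The share of members with a peak was 45.3% in both INTS13 lists and 0 in 7 of the other 8, and the exact test between proteins gave p = 0.111 (adjusted 0.139), the smallest that values with so many ties allow. Leaving out INTS11 replicate 2 left INTS11 replicate 1 as a single list and its spread out of the test. Differences between proteins then made up 100% of the spread, since the lists of each remaining pair had equal values.

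**Figure D3:**
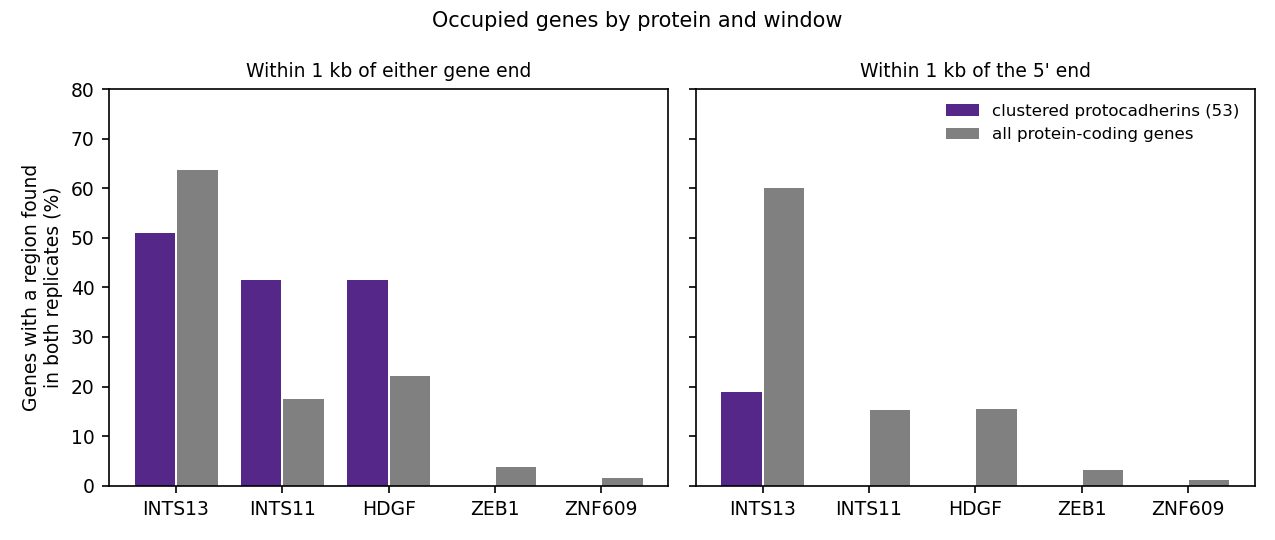
Bars give the percentage of genes with a region found in both replicates of each protein (x axis), for the 53 clustered protocadherins (purple) and all protein-coding genes (grey), within 1 kb of either gene end (left) and within 1 kb of the 5' end (right, genes with a strand). For INTS11 and HDGF the purple bar is 41.5% on the left, through the single common gamma 3' end, and 0 on the right.

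INTS13 peaks lay mostly inside the genes, with few just upstream of their starts. The mean share of alpha members with an INTS13 peak was 53.3% ± 9.4 in the first 500 bases, 36.7% ± 14.1 in the next 500, and 86.7% in both lists from 1500 to 1999 bases after the 5' end (SD, n = 2 lists). It was 3.33% ± 4.71 from 2500 to 2999 bases, and no alpha member had a peak from 2500 to 501 bases before its 5' end in either list. Gamma members had 45.5% ± 6.4 in the first 500 bases, 22.7% ± 6.4 from 1000 to 1499 and 54.5% ± 6.4 from 1500 to 1999. Beta members reached 25.0% ± 8.8 at most, from 500 to 999 bases. Among 15766 other protein-coding genes the share was highest in the first 500 bases, at a mean of 58.2% over the 2 lists, but still 47.9% from 1000 to 501 bases before the start and 40.4% from 1500 to 1999 after it. The alpha and gamma genes thus had 2 maxima within the gene and few peaks just upstream, where the promoters are poor in GC, while other genes had 1 broad maximum centred near the start. The part of base composition, and of similar copies within the family that reads could match more than once, was not tested. A shared word of 30 bases was found between the promoters of 6 of the 47 members (PCDHB8, PCDHB13, PCDHGB4, PCDHGB5, PCDHGB6 and PCDHGB7).

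**Figure D4:**
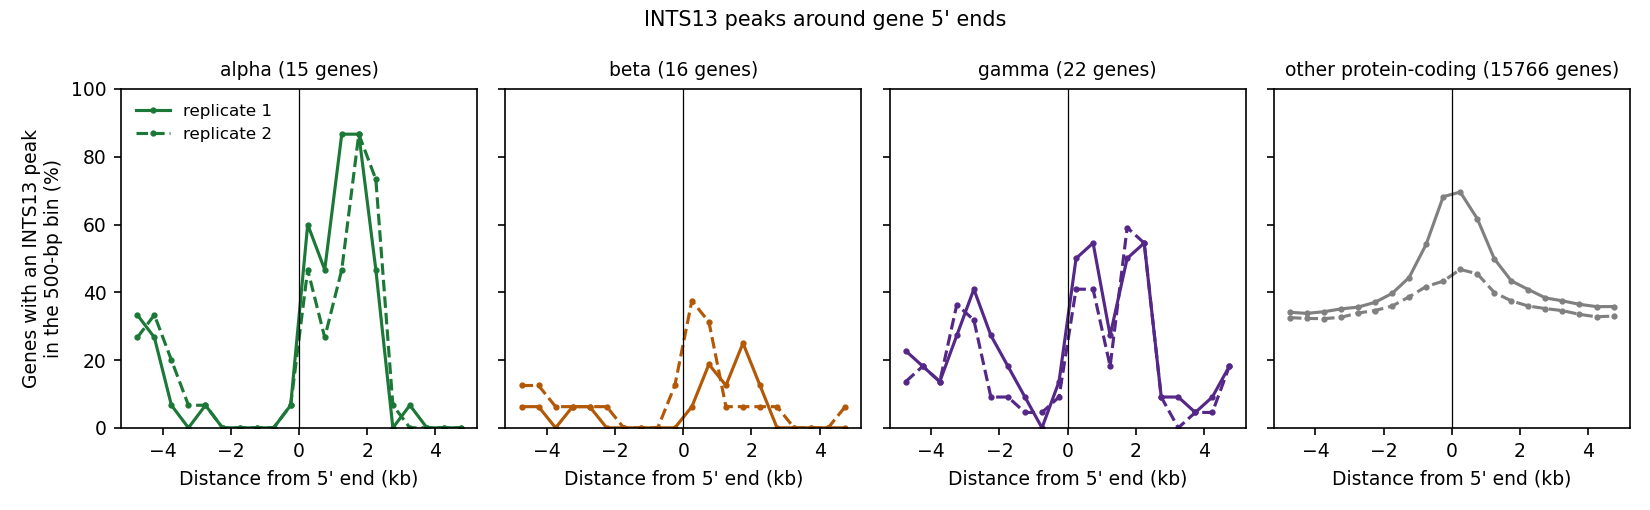
Percentage of genes with an INTS13 peak in each 500-bp bin (y axis) by distance from the 5' end in kb (x axis), for alpha, beta and gamma members and 15766 other protein-coding genes. Solid lines are replicate 1 and dashed lines replicate 2. Alpha reaches 86.7% between 1.5 and 2 kb in both lists. The rises left of -2 kb in alpha and gamma lie where the gene upstream begins.

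When the first 3 kb of each gene were counted, a window chosen after this profile had been seen, 24 of 53 members had an INTS13 region found in both replicates (45.3%), against 61.9% of genes with a strand. These were 13 of 15 alpha, 0 of 16 beta and 11 of 22 gamma members. Single lists had 38 members in replicate 1 (15 alpha, 5 beta and 18 gamma) and 37 in replicate 2 (13, 7 and 17), against 78.7% and 64.8% of all genes. INTS11, HDGF, ZEB1 and ZNF609 had no region found in both replicates in the first 3 kb of any member, against 16.3%, 22.8%, 3.29% and 1.3% of genes. In single lists, apart from INTS11 replicate 1, their only such member was 1 with a ZEB1 peak in replicate 1, against 11.5% of genes in that list and 7.61% in replicate 2. The backgrounds were 39.4% and 36% in the HDGF lists and 6.36% and 2.86% in the ZNF609 lists. Of the INTS13 cluster peaks, 67.9% in replicate 1 and 70.4% in replicate 2 had their summit in a member's first 3 kb, which together make up 21.9% of the cluster.

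Of the 33 INTS13 regions, 28 touched a member's first 3 kb, and most fell into 2 ranges of distance. The limits of these ranges were set after the positions had been seen, and they bound the midpoints given here. Of these 28, 18 lay wholly between 1 and 2.6 kb after the start, with midpoints from 1.5 to 2.17 kb (median 1.81 kb), 11 of them in alpha and 7 in gamma. A further 6 ended within the first kb, with midpoints from 0.217 to 0.508 kb: those of PCDHA5, PCDHA8, PCDHA9, PCDHA12, PCDHGA2 and PCDHGB7. PCDHA5, PCDHA9, PCDHA12 and PCDHGB7 had one of each kind. The remaining 4 belonged to C-type members. A region within the range of 1 to 2.6 kb also lay in PCDHA14, annotated as a pseudogene (chr5:140861188-140863550), from 1.17 to 2.17 kb after its lower-coordinate end.

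**Figure D5:**
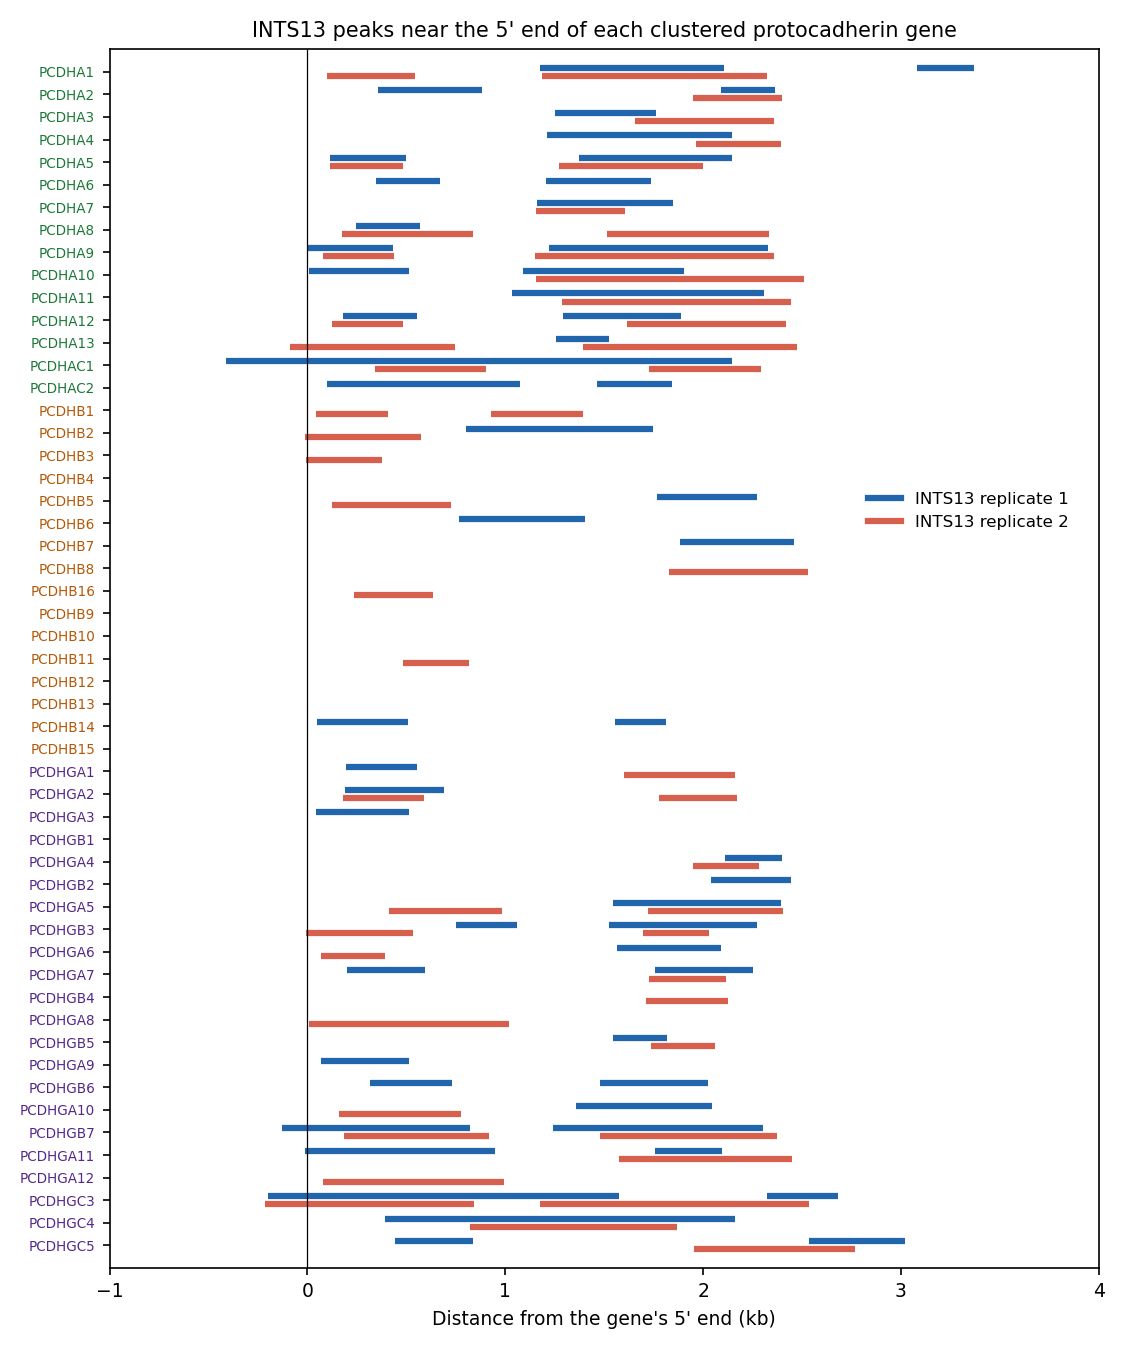
Each bar is an INTS13 peak of replicate 1 (blue) or replicate 2 (red), drawn from 1 kb before to 4 kb after the 5' end of each of the 53 members (x axis, kb; rows in order along the chromosome, names coloured by sub-cluster). In alpha (green names) peaks of both lists line up between about 1 and 2.5 kb. In beta (orange names) no bars of the 2 lists overlap.

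Among alpha members PCDHA5 had the best-ranked INTS13 peaks at its 5' end. They had a fold of 2.86 (-log10 q 5.19) in replicate 1 and 2.61 (-log10 q 5.26) in replicate 2, and the merged region chr5:140821725-140822111 began 112 bases after the start. Both values were above the median fold of their list, 2.34 and 2.09. A second PCDHA5 region followed at chr5:140822884-140823759, with folds of 2.25 and 2.29. PCDHA1, the first gene of the array, had a 5' end peak in replicate 2 alone (fold 2.61) but a region of both lists further in, chr5:140787316-140788462, with folds of 2.34 and 2.48. PCDHA12 repeated the pair of positions, with folds of 2.16 and 1.96 in the first kb and 2.34 and 2.09 beyond it. PCDHA6 and PCDHAC2 were the only alpha members with no region of both lists in the first 3 kb, since each had peaks in replicate 1 alone.

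The widest regions were those of the C-type members PCDHAC1, PCDHGC3 and PCDHGC4. In PCDHAC1 a region of 2702 bp crossed the start, from position -410 to 2291 relative to it, with peaks of fold 2.60 in replicate 1 and 1.89 and 2.22 in replicate 2. PCDHAC2 had folds of 2.34 and 2.42 in replicate 1 and no peak in replicate 2. PCDHGC3 had a region of 2899 bp, chr5:141475751-141478649, which began at position -215 relative to the start and so reaches into the promoter printed above. Its peaks at the start had a fold of 2.86 (percentile 86.4) in replicate 1 and 2.16 (percentile 54.3) in replicate 2. PCDHGC4 had a region of 1770 bp from 392 bases after the start, with folds of 2.60 and 2.09. In PCDHGC5 the region lay from 1955 to 3019 bases after the start, with folds of 3.20 and 1.89, and so was strong in replicate 1 alone.

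Beta members had INTS13 peaks that did not repeat. PCDHB2 had 1 in each list near its 5' end, but the peak of replicate 1 (fold 2.42) lay from 799 to 1748 bases after the start and that of replicate 2 (fold 2.09) ended at base 575. PCDHB1 had 2 peaks near its start in replicate 2, with folds of 2.16 and 2.09, and none in replicate 1. PCDHB16 had 1 in replicate 2 (fold 1.96) and none in replicate 1, the same fold and lists as PCDHB11. Other proteins had 2 peaks in the whole beta sub-cluster, 1 of INTS11 replicate 1 and 1 of ZEB1 replicate 1.

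In gamma, outside the C-type genes, PCDHGA11 was named for its mean INTS13 percentile over both lists, 57.6, but only its replicate 1 peak (fold 2.68, percentile 78.8) lay over the start. The replicate 2 peak counted there (fold 2.02) lies in PCDHGB7 and touches the window at its last base, 1000 bases upstream, so the mean rests on a neighbour's peak. PCDHGB7 itself had a mean of 56.4, and in replicate 1 PCDHGA3 ranked above PCDHGA11, with a fold of 2.77 (percentile 83.0). PCDHGA11 did have a region of both lists further in, from 1575 to 2447 bases after the start, with folds of 2.51 and 2.35. PCDHGB7 had both kinds of region, with folds of 2.51 and 2.09 near the start and 2.16 and 2.02 beyond. The only gamma member without an INTS13 peak of either list in the first 3 kb was PCDHGB1.

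INTS11 peaks in the cluster came almost wholly from 1 library. Of the 18 peaks of replicate 1, 8 lay in alpha, 8 in gamma, 1 in beta and 1 between sub-clusters, with folds from 1.79 to 2.34 and a median percentile of 21.6 in their list. Of these 18, 12 overlapped an INTS13 peak of either list, 7 overlapped peaks of both, and 11 had their summit in a member's first 3 kb. The members with such a peak were 6 in alpha and 4 in gamma, where the background of that list was 46.7%. PCDHA1 was one of them, with folds of 1.86 and 1.93. PCDHA3 and PCDHA8 had the highest fold, 2.34 each. Replicate 2 had no peak in the first 3 kb of any member, against 20.1% of genes, so none of these sites was found in both INTS11 lists.

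The common 3' end of the gamma genes was the only place in the cluster where INTS13, INTS11 and HDGF all had a region found in both replicates. The INTS13 region was chr5:141511720-141513303 (1584 bp), with folds of 2.60 in replicate 1 and 1.89 in replicate 2. The INTS11 region was chr5:141512101-141512938 (838 bp), with folds of 1.93 and 2.09. The HDGF region was chr5:141511999-141512406 (408 bp), with folds of 2.76 and 2.79. All 3 merged regions overlap. In single lists, the INTS11 peak of replicate 2 (chr5:141512561-141512938) overlapped the INTS13 peak of replicate 2. It overlapped neither HDGF peak, nor the INTS13 peak of replicate 1. The overlap of INTS11 with HDGF thus came from the INTS11 peak of replicate 1 alone. The INTS13 peak of replicate 1 stood at percentile 73.5 of its list (-log10 q 4.02) and that of replicate 2 at 18.2 (-log10 q 1.90). The peaks of the other 2 proteins ranked low: the -log10 q of HDGF was 1.86 and 1.62, at percentiles 23.0 and 10.2 of its lists, and that of INTS11 was 1.68 and 2.01. With peaks within 500 bp of gene ends, HDGF had none here. DIAPH1, a formin gene on the other strand, is the next gene past this end. No such region lay at the common 3' end of the alpha genes, where no list had a peak within 1 kb.

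ZEB1 had few peaks in the cluster and ZNF609 had none. The median 1-Mb bin held 1 ZEB1 peak in both lists, and 1 and 0 ZNF609 peaks, so counts this low were not particular to the cluster. The 2 ZEB1 peaks of replicate 1 lay between PCDHB14 and PCDHB15 (chr5:141236129-141236548, fold 2.08) and after the start of PCDHGA12 (chr5:141431568-141431937, fold 2.41). The 1 of replicate 2 lay 12.2 kb after the start of PCDHAC2 (chr5:140978559-140978890, fold 2.29), and none overlapped another ZEB1 peak. ZNF609 had 0 peaks in both lists.

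Among the genes inside and beside the cluster, INTS13 regions were the most frequent, though not every gene had one. SLC25A2, a mitochondrial carrier gene between beta and gamma, had an INTS13 region at an end, with folds of 2.08 and 2.22. TAF7, a subunit gene of the general transcription factor TFIID, had 1 INTS13 peak in replicate 1 (fold 2.34) and none in replicate 2. Upstream, HARS1 and HARS2, which encode histidyl-tRNA synthetases, and the zinc finger gene ZMAT2 had INTS13 regions, with highest folds of 2.94 to 3.20 in replicate 1. HARS1 and HARS2 adjoin and had the same highest folds, 3.20 and 2.29, so their regions may be shared. Downstream, the histone deacetylase gene HDAC3 and its neighbour RELL2 had regions of both INTS13 and HDGF, while DIAPH1 had no region of any protein in both replicates. HDAC3 and RELL2 also adjoin, and their highest INTS13 folds were the same, 3.29 and 2.09. At RELL2 only the HDGF peak of replicate 1 lay in the 1-kb windows. Of 97 other protein-coding genes within 5 Mb, 75 had INTS13 (77.3%), 7 had INTS11 (7.22%), 19 had HDGF (19.6%) and none had ZEB1 or ZNF609. Over all protein-coding genes the shares were 63.7% (INTS13), 17.4% (INTS11), 22.2% (HDGF), 3.78% (ZEB1) and 1.57% (ZNF609). The scarcity of ZEB1 and ZNF609 was therefore shared by the neighbourhood. Of 390 olfactory receptor genes, another tandem family, 37 had an INTS13 region at either end (9.49%), 7 had INTS11 (1.79%) and 1 had HDGF (0.256%). These 3 shares lay below those of all protein-coding genes.

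Genes for proteins known to control or transmit protocadherin function were counted in the same way, at either gene end. Of 13 regulators of the cluster, 12 had an INTS13 region (all but SMCHD1, a chromosome-silencing factor), 4 had INTS11, 2 had HDGF and 0 had ZEB1 or ZNF609. The shares, 92.3%, 30.8% and 15.4% for the first 3 proteins, stand beside 63.7%, 17.4% and 22.2% of all protein-coding genes, and with 13 genes nothing particular was read from them. SETDB1, a histone methyltransferase known in mouse neurons to act on the cluster, had INTS13 (highest folds 3.46 and 3.20), INTS11 (2.76 and 2.45) and HDGF. SMC3, a cohesin subunit, had the same 3 proteins, with INTS13 folds of 3.46 and 2.61. For HDGF at SMC3, only peaks of replicate 1 lay in the 1-kb windows. For INTS13 at RAD21, another of the 12, only a peak of replicate 2 did. STAG2, another cohesin subunit, and WAPL, which releases cohesin, had INTS13 and INTS11. CTCF, which binds the promoters of the cluster, had INTS13 alone (2.86 and 2.02). Of 11 signalling partners 7 had INTS13, 2 had HDGF and 0 had INTS11. The INTS13 and HDGF shares, 63.6% and 18.2%, lay near the 63.7% and 22.2% of all genes, and the INTS11 share over all genes was 17.4%. The 2 with HDGF were AXIN1, a scaffold of Wnt signalling, and BRK1, a subunit of the actin-regulating WAVE complex.

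Of the 11 non-clustered protocadherins, which have no shared exons, 5 had an INTS13 region (PCDH1, PCDH8, PCDH9, PCDH12 and PCDH19) and 3 had INTS11 (PCDH1, PCDH9 and PCDH19). These are 45.5% and 27.3% of the 11, against 63.7% and 17.4% of all protein-coding genes. For INTS13 at PCDH8 and INTS11 at PCDH1, only the peaks of replicate 1 lay in the 1-kb windows. PCDH19, on chromosome X, had INTS13 folds of 3.29 and 2.68 and INTS11 folds of 2.55 and 2.53. PCDH1, downstream of the cluster on the same chromosome, had INTS13 folds of 2.94 and 2.29. PCDH9 was the exception, with a region of all 5 proteins and INTS13 folds of 8.05 and 5.49. Its ends lie in 1-Mb bins of chromosome 13 that held 5.02 and 6.90 times the mean bin at the median of the 10 lists. At the same median, the bins that hold the cluster, at 140 and 141 Mb of chromosome 5, held 0.910 and 0.383 times. In the INTS13 lists these cluster bins were above the mean bin, at 1.53 and 1.66 times (140 Mb) and 1.445 and 1.42 times (141 Mb). The part of the density of its bins in the PCDH9 regions was not tested.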

How the data were processed

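The submitters' processing notes name MACS2, Bowtie, Picard, Trimmomatic and FastQC, without versions, and settings and the control are not stated there. Deposited files are peak lists, 1 per library, so peaks had been called on each replicate by itself. The fold of a peak is the authors' ratio of its height to the caller's background. Its p-value and q-value are the authors' values on a -log10 scale, its score is the deposited whole-number score, and the last deposited column gives the summit offset. All belong to a peak within its own list. The files are named as filtered; the filter is not stated, and some peaks end before their own summit. GRCh38 was inferred from the names of alternate contigs.

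Peaks on chromosomes 1 to 22 and X were used, in coordinates counted from 1. Peaks of the 2 lists of a protein that overlapped by 1 bp or more were merged into regions found in both replicates. A gene counted as occupied where such a region touched the window, so the peak of either list may lie just outside it. Gene positions came from RefSeq (GRCh38.p14); strand came from its promoter table, for 15813 protein-coding genes. Proteins were compared with an exact permutation test over the 945 ways to divide 10 lists into 5 pairs, Benjamini-Hochberg adjusted over 5 tests, with Python 3.11.15, numpy 2.4.6 and pandas 2.3.3, and tested on simulated data. The members, lists and windows were chosen with earlier results of these data known. Genes were named by rule: members with a 5' end region of HDGF, INTS11, ZEB1 or ZNF609 (there were 0), the 3 members of each sub-cluster with the best mean INTS13 percentile at the 5' end, C-type members, genes inside the cluster and the nearest 3 on each side, and genes of the 3 lists with regions of 2 proteins or more. Other members were named after their values were seen. The lists were regulators of the cluster, signalling partners and non-clustered protocadherins. Replicate numbers were not used as pairs: over 3043 bins of 1 Mb, same-numbered lists correlated with r over 0.1 in 4 of 10 pairs of proteins (range -0.174 to 0.196).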

Additional observations from a re-analysis of the deposited data

How the results depend on the processing

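The tests between proteins changed most with the INTS11 lists. Leaving out each library in turn, the share of the spread that lay between proteins ran over 74.4% to 97.2% for cluster density and 76.3% to 98.1% for covered base pairs. It ran over 34.7% to 72.1% for alpha to beta, 83.0% to 94.4% for gamma to beta and 96.5% to 100% for members with a 5' end peak. Calls were gained only where an INTS11 list was left out, which leaves the other single and its spread out of the test. The HDGF, ZEB1 and ZNF609 lists had few or no cluster peaks, so these gained calls were not read as results. With only peaks of -log10 q of 5 or more the share was 91.5% for density and 90.5% for covered base pairs (exact permutation test, adjusted p = 0.0238 for both). For the other 3 measures, in the order above, it was 98.4%, 44.4% and 95.2%. All 8 lists of the other 4 proteins then had 0 cluster peaks, so their values are the added peak over the density of the list, and these shares and p-values are no test of the cluster. With replicate number as a block the shares were 83.0%, 85.8%, 48.3%, 90.4% and 98.4%, and no call changed. Among the 10000 strongest peaks of each list the cluster held 0 in 10 of 10 lists, so no test of the cluster could be made there.

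Counts of members at either end changed most. INTS13's 27 became 10 at 5' ends only, 10 without the common 3' ends, 8 where peaks had to overlap by 0.5 of each and 1 at -log10 q of 5 or more. INTS11's 22 became 0 under each of these 4 settings. HDGF's 22 became 0 within 500 bp, at 5' ends only, without the common 3' ends and at -log10 q of 5 or more. ZEB1 and ZNF609 stayed at 0 under all 8 alternatives. In single lists, given with replicate 1 first, INTS13 had 34 and 36 members, INTS11 26 and 22 and HDGF 22 in both. In the first 3 kb, alpha's 13 became 8 with overlap by 0.5 of each and 1 at -log10 q of 5 or more. In single lists it was 15 and 13. Gamma's 11 became 7 and 0, with 18 and 17 in single lists. Beta's 0 became 5 and 7 in single lists. The median percentile of INTS13 cluster peaks, a mean of 34.3 over both lists, was 41.6 and 27.0 in the single lists. These settings on the first 3 kb and on the common 3' ends were added after seeing the data. Except for 5' ends and single lists, the share of all genes was not counted under the alternatives. The changes were therefore not read as particular to the members. Over all chromosomes, 15.1% and 12.1% of the INTS13 peaks reached a -log10 q of 5. Depth is unknown, so 0 peaks is no proof of absence.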
